A study of Mus musculus with 14 samples.

Results

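The heat shock proteins and chaperones examined here were 10 genes: Hspa8, Hsp90aa1, Hsp90ab1, Hspa5, Hspa9, Hspd1, Hspe1, Hsph1, Dnajb1 and Hspb1. A probe set, a group of short probes for a transcript, counted for a gene where the platform annotation gave it that symbol alone. By this rule 9 of the 10 genes had 22 probe sets, out of 12393 genes in all, and Hsp90ab1 is not analysed here. None of the 22 probe sets differed between the genotypes beyond the spread between arrays. For the brightest probe set of each gene the 95% confidence intervals of all mutant differences, in a model with a mean per genotype, lay within 1 unit on the log2 scale. With the title number run as a block, 2 intervals between the mutants passed that bound, Hspa5 reaching 1.04 and Hspb1 1.17.

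The study took red cell precursors of the primitive lineage, which arises earliest in the embryo, by laser capture from mouse yolk sac sections at embryonic day 9.5. The mice were of the FVB/N strain, and there were 3 KLF1-/- samples (title numbers 5, 6 and 8), 3 labelled KLF1-/- KLF2-/- (13, 14 and 15) and 8 wild-type samples (1 to 4 and 9 to 12). Each sample pooled 2 to 4 yolk sacs of 2 litters and was hybridised to 1 Affymetrix mouse expression array. KLF1 and KLF2 are Krüppel-like transcription factors. Embryos came from heterozygous mothers and were genotyped by PCR on tail tissue. The mutations are named as null alleles of the whole animal, and the labels give no restriction to a cell type.

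Heat shock proteins are molecular chaperones: they bind unfolded or partly folded proteins, prevent aggregation and pass clients on between machines. The Hsp70 proteins Hspa8 (cytosol), Hspa5 (endoplasmic reticulum, also called BiP) and Hspa9 (mitochondria, also called mortalin) cycle on and off their clients with ATP. J-domain proteins such as Dnajb1 stimulate that cycle, and Hsph1, an Hsp110 protein, releases its nucleotide. Hsp90 proteins finish the folding of kinases and receptors, Hspd1 and Hspe1 form the chamber and lid of the mitochondrial chaperonin, and Hspb1 is a small heat shock protein that holds unfolded clients without ATP. Red cell precursors make globin, heme and iron-sulphur clusters at high rates. Human work places Hsp70 beside GATA1, the erythroid transcription factor, during maturation.

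The promoters of several members hold the letters of elements through which heat shock factor 1 or the unfolded protein response are known to act. They are shown because this shared control gave the family its name. RefSeq promoter windows on GRCm38.p6, 250 bases before to 50 after a start site, were held for 6 of the 10 genes, in 9 windows. Capitals mark the matched elements, read 5′ to 3′ on the strand of each gene.

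Hspe1: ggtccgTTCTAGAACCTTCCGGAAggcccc

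Hspd1: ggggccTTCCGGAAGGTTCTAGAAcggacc

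Hsph1: tgggtagaatctTTCTCGAAggctcgagaa

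Hspb1: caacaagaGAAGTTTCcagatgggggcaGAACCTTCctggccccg

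Hspa5: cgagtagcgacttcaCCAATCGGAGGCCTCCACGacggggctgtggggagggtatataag

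Hspd1 and Hspe1 are neighbours transcribed away from each other, with starts 216 bases apart. Another annotated start of Hspd1 lies 95 bases beyond that of Hspe1. The Hspe1 stretch lies at chr1:55088053-55088082 on the plus strand, from −95 to −66 relative to its start. The Hspd1 stretch is the same DNA read on the other strand, from −150 to −121 relative to its start. It holds 2 overlapping matches to the 3-unit heat shock element GAANNTTCNNGAA, searched on both strands, which 198 of 32851 windows (0.603%) contained. The Hsph1 stretch lies at chr5:149636352-149636381 on the minus strand, from −45 to −16 relative to a start, and holds the 2-unit form TTCNNGAA, found in 8.52% of windows. A 3-unit match of Hsph1 lies 36 to 48 bases after that start, so 3 members had a 3-unit element. The Hspb1 stretch lies at chr5:135887794-135887838 on the plus strand, from −125 to −81 relative to the start, and holds 2 copies of the 2-unit form GAANNTTC, found in 7.86% of windows. The Hspa5 stretch lies at chr2:34772010-34772069 on the plus strand, from −80 to −21 relative to the start. It matches the ER stress response element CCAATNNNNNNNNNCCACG, which 39 windows (0.119%) contained. Each 3-unit match also contains 2-unit forms, so these searches overlap. The 2 windows of Dnajb1 held none of these letters. A match describes the sequence only, and binding was not measured.

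The arrays gave log2 values on which brightness does not order different probes, so each difference is taken within a probe set. The marker levels below are a rough guide and do not measure cell content. Erythroid markers were bright in wild-type arrays, with the embryonic globin Hbb-y at 14.42 ± 0.11 and Gata1 at 10.67 ± 0.51 (SD, n = 8). Some markers of other yolk sac cells also read high, among them the visceral endoderm gene Apoa1 at 11.46 ± 0.98 and the platelet gene Pf4 at 11.21 ± 0.37 (SD, n = 8). Other genes of the platelet list read lower, such as Itga2b at 7.07 ± 0.16 and Vwf at 5.52 ± 0.33. The visceral endoderm list averaged 10.43 to 12.02 on wild-type arrays. The endothelial list averaged 6.53 to 6.88 there and the macrophage list 6.37 to 6.92, beside a median of 6.617 over all probe sets. The 11 measured megakaryocyte markers averaged 7.04 to 7.19 on KLF1-/- arrays, 7.20 to 7.55 on KLF1-/- KLF2-/- labelled arrays and 6.63 to 7.05 on wild-type arrays, and 0 were called. The 12 mesenchyme and mesothelium markers, from Twist1 at 6.13 ± 0.37 to Col3a1 at 11.98 ± 0.50 in wild type, averaged 8.60 to 9.51 on wild-type arrays. Their median difference from wild type was 0.0038 in KLF1-/- (7 of 12 above 0) and 0.33 in the KLF1-/- KLF2-/- labelled arrays (10 of 12), and 0 were called. In captured material, fewer cells of a type and less RNA per cell cannot be told apart.

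The targeted genes were examined first. Klf1 stood at 9.53, 9.79 and 9.03 in KLF1-/-, at 9.29, 9.59 and 8.56 in the KLF1-/- KLF2-/- labelled arrays, and between 10.05 and 11.82, median 10.48, in wild type. All 6 mutant arrays lay below all wild-type arrays. The differences were −1.22 (95% CI −1.98 to −0.46) in KLF1-/- and −1.52 (−2.28 to −0.77) in the KLF1-/- KLF2-/- labelled arrays, with limma adjusted p of 0.9998 and 0.525. Klf1 also stood 0.88 higher (0.25 to 1.51) on wild-type numbers 9 to 12 than on 1 to 4. With the title number run as a block, its KLF1-/- difference was −0.78 (−1.47 to −0.096, limma adjusted p = 0.9998). That of the KLF1-/- KLF2-/- labelled arrays was −1.96 (−2.65 to −1.28, adjusted p = 0.0811), and between the mutants it was −1.18 (−2.15 to −0.21). Klf2 stood at 6.72, 7.0 and 6.36 in the KLF1-/- KLF2-/- labelled arrays, at 5.99, 6.53 and 6.14 in KLF1-/-, and between 5.90 and 6.59, median 6.30, in wild type. The differences of the KLF1-/- KLF2-/- labelled arrays were 0.44 (95% CI 0.06 to 0.82, unadjusted p = 0.0263, adjusted p = 0.9999 in limma) from wild type and 0.47 (0.0099 to 0.93, unadjusted p = 0.0459, adjusted p = 1) from KLF1-/-. Klf2 thus averaged higher, not lower, in the arrays carrying the KLF2 label, without passing the adjusted threshold, and the sources used here do not say whether its probe set lies in the deleted stretch. Its wild-type mean of 6.25 lay below the median over all probe sets, 6.617, so a loss may have little room to show. The comparisons could call large differences: the probe set with the smallest p, which has no single gene in the annotation, differed by −4.82 in KLF1-/- and by −4.88 in the KLF1-/- KLF2-/- labelled arrays (limma adjusted p = 9.18e-08 and 7.91e-08).

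The first question was whether loss of KLF1, alone or with KLF2, moved the chaperones. In KLF1-/- against wild type, 0 of the 22 member probe sets were called by limma at an adjusted p under 0.05, where 0.0265% of all 22626 probe sets were called. At an unadjusted p under 0.05 the members again counted 0, against 1.92% of all, and 0 had groups that did not overlap, against 0.513%. In the KLF1-/- KLF2-/- labelled arrays against wild type the 3 counts were 0 of 22 each, against 0.0221% called, 2.11% past the unadjusted p and 0.698% not overlapping. Between the mutants they were 0 of 22 each, against 0% called, 0.628% past the unadjusted p and 3.48% not overlapping. With backgrounds this low, counts of 0 among 22 probe sets do not set the members apart from other genes. Both mutant comparisons use the same wild-type arrays, so their values are not independent.

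The differences themselves were small. Over the 9 brightest probe sets, KLF1-/- minus wild type ran from −0.31 to 0.067 with a median of −0.078, beside a median of 0.0059 over all probe sets. The KLF1-/- KLF2-/- labelled arrays minus wild type ran from −0.12 to 0.15 with a median of −0.059, beside 0.005 over all. The largest of these, 0.31 in size, is a 1.24-fold difference. The lowest and highest bounds of the intervals were −0.75 and 0.63 in KLF1-/-, and −0.65 and 0.61 in the KLF1-/- KLF2-/- labelled arrays. All 22 intervals held 0 in each of the 3 genotype comparisons. Of the 22, 18 stayed within 1 log2 unit in KLF1-/- and 19 in the KLF1-/- KLF2-/- labelled arrays, both against wild type, and 14 between the mutants. For the other dimmer probe sets a difference over 1 unit is not excluded.

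**Figure D1:**
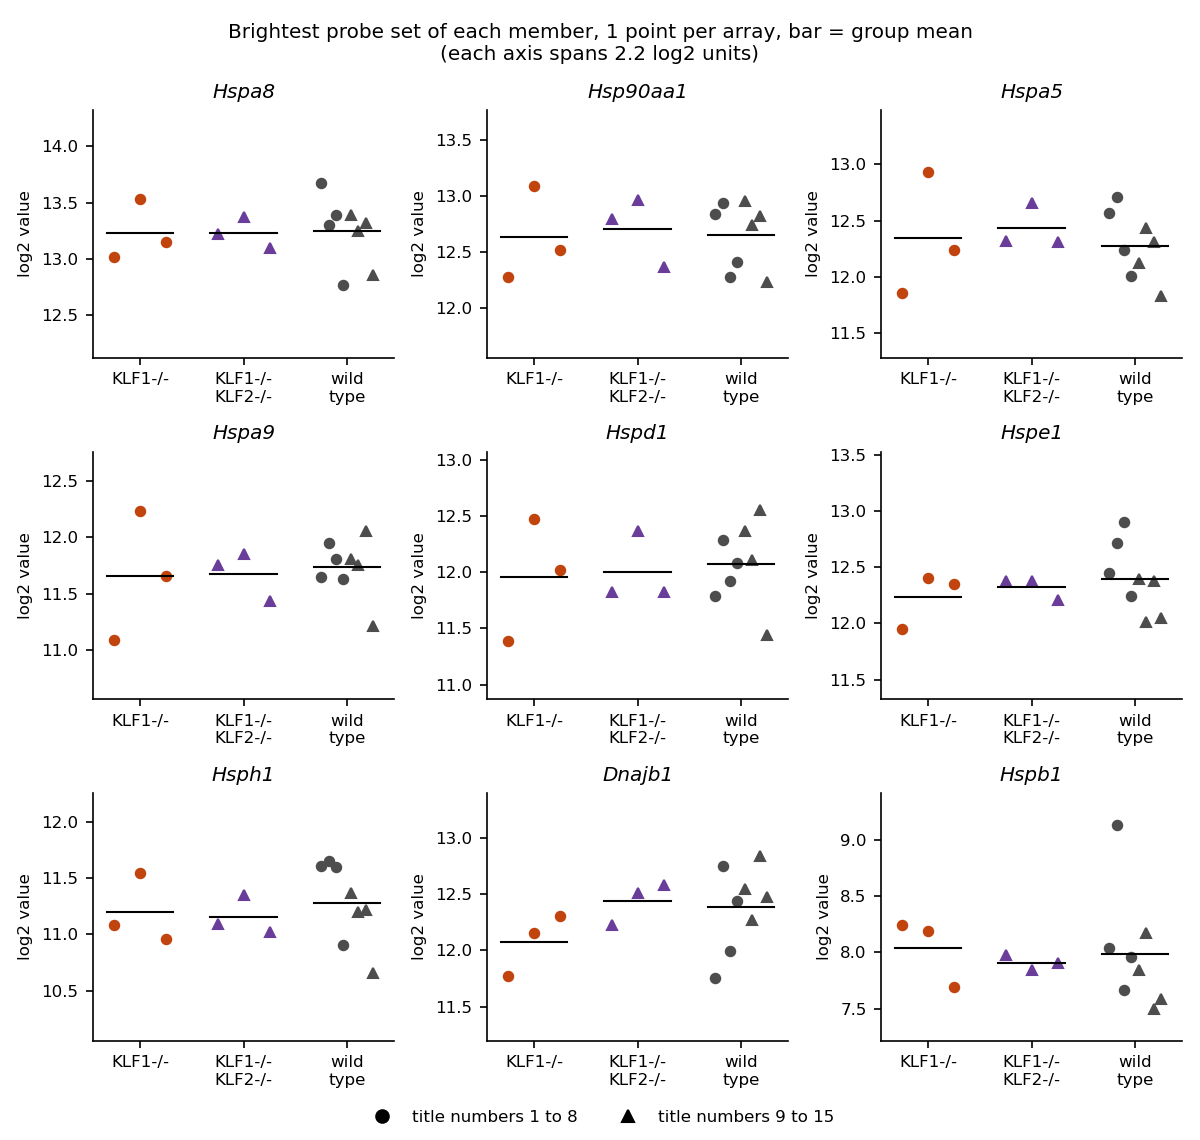
Log2 value of the brightest probe set of each of the 9 members (vertical axis, spanning 2.2 log2 units in each panel) by genotype, with 1 point per array, circles for title numbers 1 to 8, triangles for 9 to 15, and a bar at the group mean. The genotypes overlap for every gene shown, and wild-type replicate 2 stands high for Hspb1 at 9.13.

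The cytosolic Hsp70 system comes first. Hspa8, the constitutive Hsp70 of the cytosol, read 13.02, 13.53 and 13.15 in KLF1-/-, 13.22, 13.37 and 13.10 in the KLF1-/- KLF2-/- labelled arrays, and 12.77 to 13.67, median 13.31, in wild type. Every mutant array lay inside the wild-type range. The differences from wild type were −0.011 (95% CI −0.39 to 0.36) in KLF1-/- and −0.014 (−0.39 to 0.36) in the KLF1-/- KLF2-/- labelled arrays, which makes Hspa8 the member closest to 0 in both. Of its 3 dimmer probe sets 2 ran the other way, at 0.046 and 0.11 in KLF1-/- and 0.15 and 0.18 in the KLF1-/- KLF2-/- labelled arrays, while the other stood at −0.048 in KLF1-/- and −0.37 in the KLF1-/- KLF2-/- labelled arrays. The mouse genome holds processed copies of Hspa8, and the brightest set carries the suffix for probes that may match other transcripts, so its reading may include them.

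Hsph1, the Hsp110 exchange factor whose promoter stretch is shown above, read 11.08, 11.55 and 10.96 in KLF1-/-, 11.09, 11.35 and 11.02 in the KLF1-/- KLF2-/- labelled arrays, and 10.66 to 11.65, median 11.30, in wild type. The 6 mutant arrays lay inside the wild-type range. The differences were −0.079 (95% CI −0.52 to 0.36) in KLF1-/- and −0.12 (−0.56 to 0.32) in the KLF1-/- KLF2-/- labelled arrays. Its dimmer probe set had the opposite sign, at 0.025 in KLF1-/- and 0.14 in the KLF1-/- KLF2-/- labelled arrays.

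Dnajb1, the heat-inducible J-domain partner of Hsp70, gave the largest difference from wild type. It read 11.77, 12.15 and 12.30 in KLF1-/-, 12.22, 12.51 and 12.58 in the KLF1-/- KLF2-/- labelled arrays, and 11.75 to 12.84, median 12.45, in wild type. All 3 KLF1-/- arrays lay below the wild-type median but inside the wild-type range. The difference was −0.31 (95% CI −0.75 to 0.14, unadjusted p = 0.158 and adjusted p = 0.9998 in limma) in KLF1-/-, and 0.054 (−0.39 to 0.50) in the KLF1-/- KLF2-/- labelled arrays. Against the 4 wild-type arrays of its own title numbers, the KLF1-/- difference was −0.16 (−0.65 to 0.32). Between the mutants it was 0.36 (−0.17 to 0.90), or 0.069 with the number run as a block. Its second probe set read −0.14 in KLF1-/- and −0.043 in the KLF1-/- KLF2-/- labelled arrays.

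Of the cytosolic Hsp90 pair, Hsp90aa1, the inducible form, was measured. It read 12.28, 13.09 and 12.52 in KLF1-/-, 12.79, 12.96 and 12.37 in the KLF1-/- KLF2-/- labelled arrays, and 12.23 to 12.95, median 12.78, in wild type. KLF1-/- replicate 6 was the highest of all 14 arrays and wild-type replicate 12 the lowest. The differences were −0.021 (95% CI −0.46 to 0.42) in KLF1-/- and 0.057 (−0.38 to 0.50) in the KLF1-/- KLF2-/- labelled arrays. The dimmer probe sets of Hsp90aa1 stood at 0.35 and 0.27 in KLF1-/- and at 0.051 and 0.11 in the KLF1-/- KLF2-/- labelled arrays. Their intervals in KLF1-/- were wide, −0.57 to 1.26 and −0.73 to 1.27, since these sets spread over 2.54 and 2.72 log2 units among the arrays.

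The mitochondrial chaperones followed the same pattern of overlap. Hspd1, the chaperonin ring also called Hsp60, read 11.39, 12.47 and 12.02 in KLF1-/-, 11.82, 12.37 and 11.82 in the KLF1-/- KLF2-/- labelled arrays, and 11.44 to 12.55, median 12.10, in wild type. Its differences were −0.11 (95% CI −0.63 to 0.41) in KLF1-/- and −0.064 (−0.58 to 0.46) in the KLF1-/- KLF2-/- labelled arrays. KLF1-/- replicate 5 lay just below the wild-type range and the other mutant arrays inside it. The KLF1-/- arrays alone covered 1.08 of the 1.16 log2 units that Hspd1 spans over all arrays.

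Hspe1, the chaperonin lid also called Hsp10, read 11.95, 12.40 and 12.35 in KLF1-/-, 12.38, 12.38 and 12.21 in the KLF1-/- KLF2-/- labelled arrays, and 12.01 to 12.90, median 12.38, in wild type. One KLF1-/- array, replicate 5, lay just below the wild-type range and the others inside it. The differences were −0.15 (95% CI −0.53 to 0.22) in KLF1-/- and −0.066 (−0.44 to 0.31) in the KLF1-/- KLF2-/- labelled arrays. Within its own title numbers KLF1-/- stood at −0.34 (−0.71 to 0.035, unadjusted p = 0.0724 and adjusted p = 0.9998 in limma), the largest of the 9 in that setting, and the KLF1-/- KLF2-/- labelled arrays at 0.12 (−0.26 to 0.49). The dimmer probe set read 0.08 in KLF1-/- and −0.31 in the KLF1-/- KLF2-/- labelled arrays, and within their own numbers −0.34 in KLF1-/- and 0.11 in the KLF1-/- KLF2-/- labelled arrays. Processed copies of Hspe1 exist in the mouse genome, and the brightest set has a suffix for probes shared between transcripts.

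Hspa9, the mitochondrial Hsp70 that pulls in imported proteins and serves iron-sulphur cluster assembly, read 11.09, 12.23 and 11.66 in KLF1-/-, 11.75, 11.85 and 11.43 in the KLF1-/- KLF2-/- labelled arrays, and 11.21 to 12.06, median 11.78, in wild type. KLF1-/- held both the lowest and the highest array of the 14. The differences were −0.078 (95% CI −0.53 to 0.37) in KLF1-/- and −0.059 (−0.51 to 0.39) in the KLF1-/- KLF2-/- labelled arrays. Of its 3 dimmer probe sets 1 had the opposite sign in KLF1-/-, at 0.051, and the others stood at −0.071 and −0.21.

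Hspa5, the Hsp70 of the endoplasmic reticulum and a target of the unfolded protein response, read 11.86, 12.93 and 12.24 in KLF1-/-, 12.32, 12.66 and 12.31 in the KLF1-/- KLF2-/- labelled arrays, and 11.83 to 12.71, median 12.27, in wild type. KLF1-/- replicate 6 exceeded every wild-type array and the other mutant arrays lay inside the wild-type range. The differences were 0.067 (95% CI −0.39 to 0.53) in KLF1-/- and 0.15 (−0.31 to 0.61, unadjusted p = 0.487 and adjusted p = 0.9999 in limma) in the KLF1-/- KLF2-/- labelled arrays. The value of 0.15 was the largest of the 9 in that comparison, and stood at 0.26 (−0.27 to 0.78) against the wild-type arrays of its own numbers. The dimmer probe set stood at 0.45 (−0.55 to 1.46) in KLF1-/- and 0.24 (−0.76 to 1.25) in the KLF1-/- KLF2-/- labelled arrays.

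Hspb1, the small heat shock protein also called Hsp25 in the mouse, read 8.24, 8.19 and 7.69 in KLF1-/-, 7.98, 7.84 and 7.91 in the KLF1-/- KLF2-/- labelled arrays, and 7.50 to 9.13, median 7.90, in wild type. All mutant arrays lay inside the wild-type range. The KLF1-/- KLF2-/- labelled arrays lay within 0.14 of each other, while the wild-type arrays spanned 1.63. The differences were 0.056 (95% CI −0.52 to 0.63) in KLF1-/- and −0.074 (−0.65 to 0.50) in the KLF1-/- KLF2-/- labelled arrays. Without wild-type replicate 2, which alone sets the upper end of that span, they were 0.22 in KLF1-/- and 0.089 in the KLF1-/- KLF2-/- labelled arrays. The second probe set of Hspb1 differed by 0.058 in KLF1-/- and 0.056 in the KLF1-/- KLF2-/- labelled arrays. Like that of Hspa8, the brightest Hspb1 set carries the suffix for probes that may match other transcripts.

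**Figure D2:**
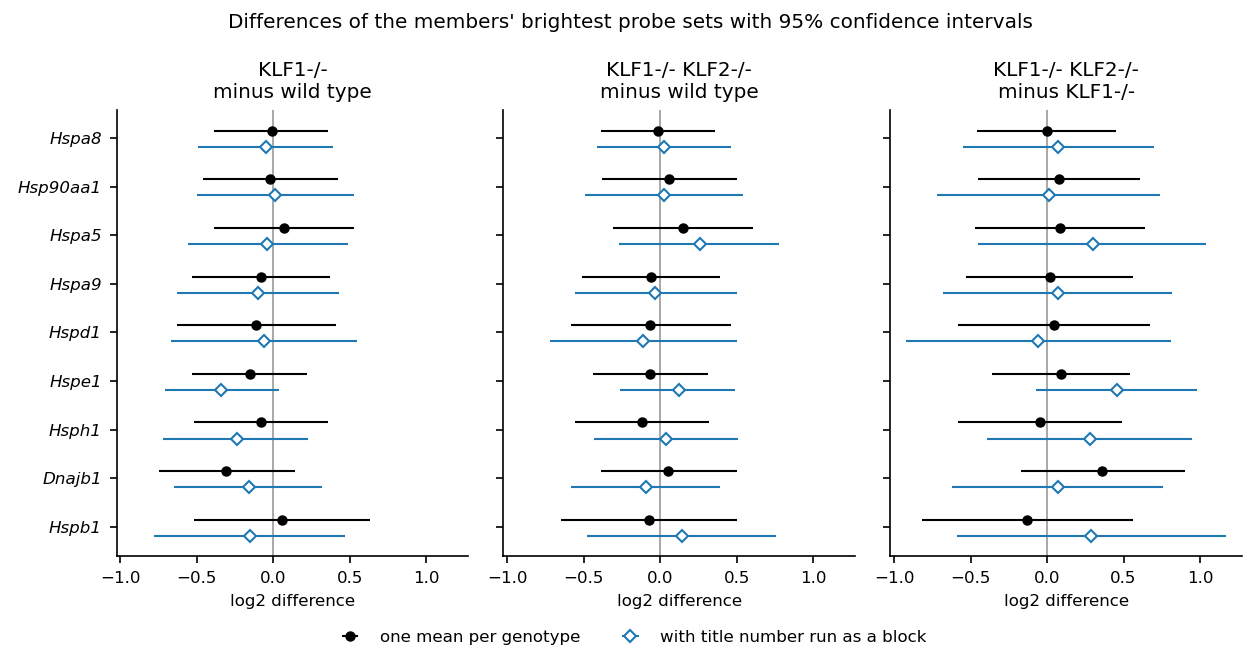
Log2 difference (horizontal axis) of the brightest probe set of each member with its 95% confidence interval in 3 comparisons, filled circles for the model with a mean per genotype and open diamonds for the model with the title number run as a block. Every interval crosses 0, and the filled circles lie between −0.31 for Dnajb1 and 0.36 for the same gene between the mutants.

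The direct comparison of the mutants asks what the KLF2 label adds to loss of KLF1. Over the 9 brightest probe sets the KLF1-/- KLF2-/- labelled arrays minus KLF1-/- ran from −0.13 for Hspb1 to 0.36 for Dnajb1, median 0.045, beside −0.00075 over all probe sets. The interval bounds reached −0.82 and 0.90, and the smallest unadjusted p was 0.168 (adjusted p = 1 in limma). Dimmer probe sets of opposite sign were those of Hspa8 at 0.10 and 0.071, Hsp90aa1 at −0.29 and −0.16, Hspa5 at −0.21, Hspa9 at −0.28 and −0.0065, Hspe1 at −0.39 and Hsph1 at 0.11. The mutants do not share title numbers, so this comparison also sets the 2 number runs against each other. With the run as a block, which measures each mutant from the wild type of its own numbers, the 9 ran from −0.056 to 0.46, the highest being Hspe1 (95% CI −0.072 to 0.98, unadjusted p = 0.0851, adjusted p = 1).

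Titles are numbered in 2 runs, and the labels do not say whether these are batches. Comparing wild-type numbers 9 to 12 with wild-type numbers 1 to 4 shows how far the members differ with no change of genotype. In limma 0 of 22 were called (0% of all probe sets). At an unadjusted p under 0.05 there was 1 of 22, against 7.13% of all probe sets, and the same 1 did not overlap, against 3.26%. This was the dimmer Hspe1 probe set, at 7.69, 7.15, 8.18 and 7.35 on numbers 9 to 12 and at 8.28, 8.25, 8.96 and 8.24 on numbers 1 to 4. Its difference was −0.84 (95% CI −1.40 to −0.27, unadjusted p = 0.00838 and adjusted p = 0.639 in limma). The brightest Hspe1 set had the same sign, at −0.37 (−0.75 to 0.016), and over the 9 brightest sets the run differences spanned −0.42 for Hspb1 to 0.29 for Dnajb1. These run differences between wild-type arrays were wider than the −0.31 to 0.067 between KLF1-/- and wild type.

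Measured within their own number run, the members again did not separate the genotypes. Of the 22 probe sets 0 had KLF1-/- arrays clear of wild-type numbers 1 to 4, where 2.96% of all probe sets did, and 0 had KLF1-/- KLF2-/- labelled arrays clear of wild-type numbers 9 to 12, where 4.34% did. With the run as a block, 0 of 22 passed an unadjusted p of 0.05 in KLF1-/- against wild type (3.02% of all), 0 in the KLF1-/- KLF2-/- labelled arrays against wild type (1.84%), and 0 between the mutants (1.52%). The 9 brightest differences then ran from −0.34 to 0.012 in KLF1-/-, with 8 of 9 below 0, and from −0.11 to 0.26 in the KLF1-/- KLF2-/- labelled arrays, with 3 of 9 below 0.

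Most of the brightest member probe sets varied together from array to array in the deposited values. The SD within genotype of their brightest probe sets was 0.27 to 0.43, median 0.32, beside a median of 0.25 over all probe sets and 0.39 over the 2263 brightest, to which 8 of the 9 belong. After quantile normalization, which gives all arrays the same distribution, the median SD was 0.20 for the members and 0.23 over all probe sets. Wild-type replicate 12 was the lowest array for 8 of the 22 probe sets, and KLF1-/- replicate 6 the highest for 9. Those arrays also had the narrowest and the widest spread of all values, with interquartile ranges of 2.31 and 3.12. The mean deviation of the 9 members from their own 14-array means ran from −0.39 on wild-type replicate 12 to 0.40 on wild-type replicate 2. Across the 14 arrays it followed the interquartile range with a Pearson r of 0.87 and a Spearman rho of 0.88, with r = 0.83 when the 2 arrays of most extreme range were left out, 0.84 within numbers 1 to 8 and 0.91 within numbers 9 to 15 (7 arrays each). No p-value is given for these, because the range of an array and the brightness of bright probe sets are taken from the same values. After quantile normalization the mean deviation ran from −0.15 to 0.15 and r was −0.048, with 0.30 within numbers 1 to 8 and −0.54 within numbers 9 to 15. RNA quality, read from how far 3′ Gapdh probe sets exceed the 5′ ones, also moved with some members. Its r with the brightest sets ran from −0.47 for Dnajb1 to 0.63 for Hspa8, with 0.62 for Hsp90aa1, whose dimmer sets stood at 0.76 and 0.74. With the mean deviation it was 0.33 in the deposited values and −0.56 after quantile normalization. Its part in the variation was not tested.

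**Figure D3:**
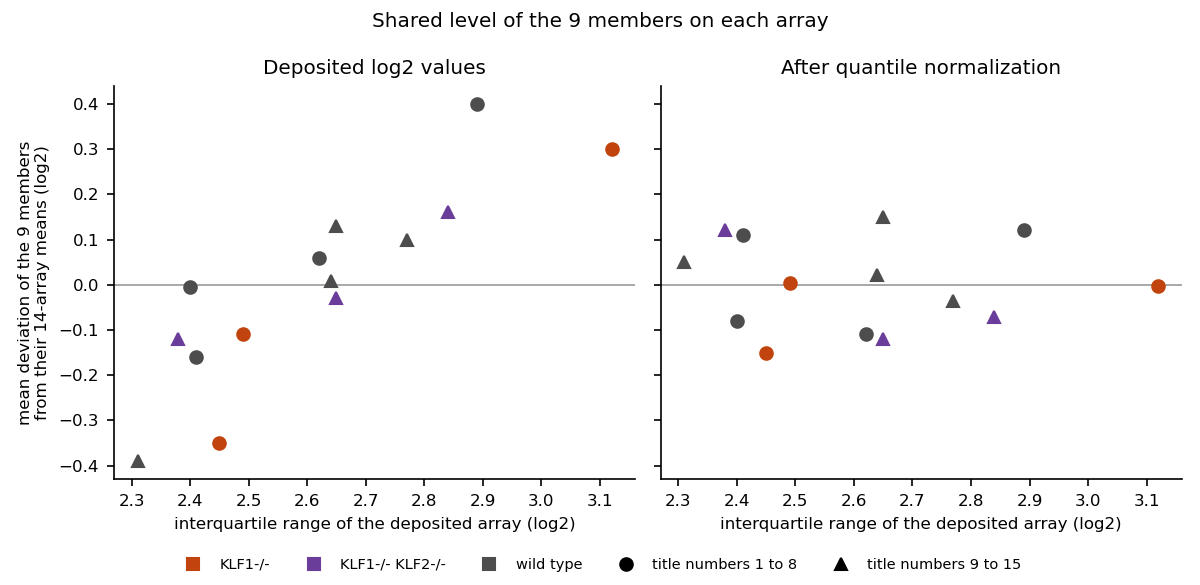
Mean deviation of the 9 members' brightest probe sets from their 14-array means (vertical axis, log2) against the interquartile range of the deposited values of each array (horizontal axis, log2), 1 point per array, coloured by genotype and shaped by title number run. The deposited values on the left rise with the range (r = 0.87), and after quantile normalization on the right the points lie between −0.15 and 0.15 with r = −0.048.

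Single members differed in how closely they tracked the array. Hsp90aa1 had the highest r with the interquartile range among the brightest sets, 0.93, followed by Hspa5 at 0.83, Hspa9 at 0.78, Hspd1 at 0.73, and Hspa8 and Hsph1 at 0.66 each. Hspb1 stood at 0.47, Hspe1 at 0.30 and Dnajb1 at 0.15. Of all 22 probe sets 15 had an r above 0.5. A dim Hspa9 probe set, with a mean of 6.08, ran the opposite way at −0.78, so the direction was not common to all probe sets of the family. Between pairs of members, r over 14 arrays was above 0 for 33 of 36 pairs, from −0.23 for Hspa8 with Dnajb1 to 0.91 for Hspa9 with Hspd1, median 0.47. Removing the genotype means left the median at 0.50. After quantile normalization 20 of 36 pairs were above 0, with a median of 0.057.

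**Figure D4:**
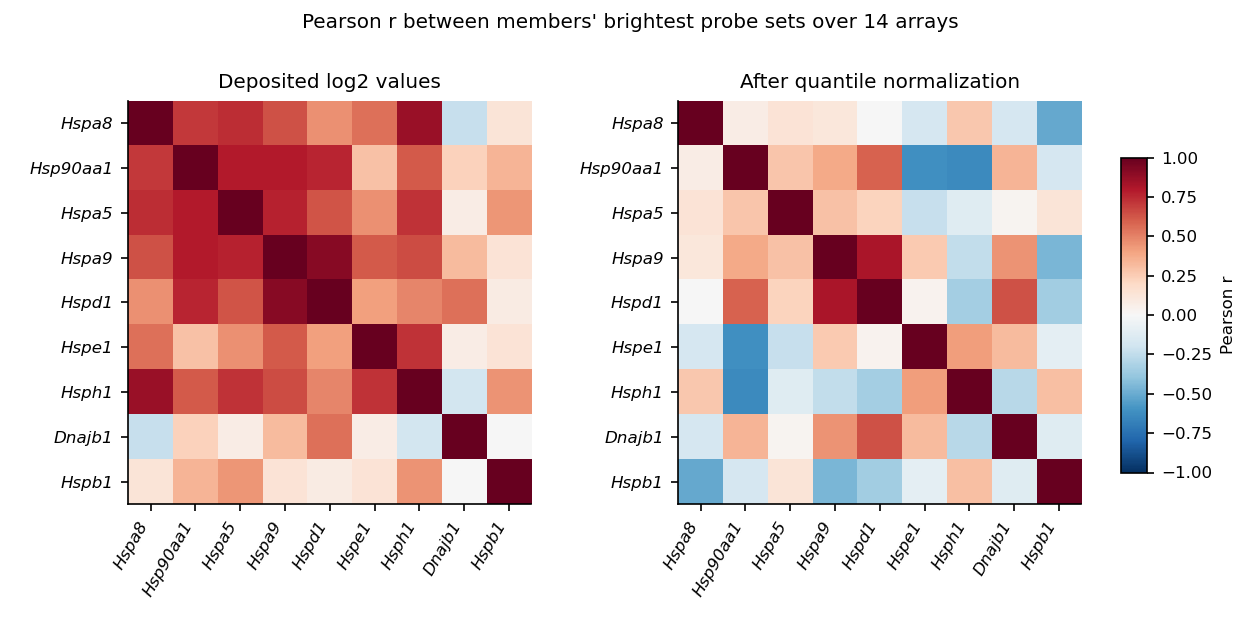
Pearson r between the brightest probe sets of each pair of members over 14 arrays, from the deposited values on the left and after quantile normalization on the right, red above 0 and blue below. Most pairs on the left are red (33 of 36 above 0), and on the right Hspa9 with Hspd1 keeps the highest r, 0.82.

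Of the 36 pairs, Hspa9 with Hspd1 had the highest r under either scaling, 0.91 in the deposited values and 0.82 after quantile normalization. Both work in the mitochondrial matrix, but so does Hspe1, which stood with Hspa9 at 0.61 and 0.26. The cytosolic Hsp90aa1 stood with Hspd1 at 0.76 and 0.59. Hspd1 and Hspe1, which share the heat shock element printed above and form one machine, had an r of 0.41, and 0.038 after quantile normalization. Hsp90aa1 stood at 0.61 with Hsph1 and 0.29 with Hspe1 in the deposited values, and at −0.64 and −0.61 after quantile normalization. Hspd1 with Dnajb1 stood at 0.55 and 0.64. Dnajb1 and Hspb1 had the lowest median r with the other members in the deposited values, 0.073 and 0.14. After quantile normalization the lowest were Hsph1 at −0.18 and Hspb1 at −0.15, while Dnajb1 stood at 0.17. These are descriptions over 14 arrays that share their amplification and scaling.

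Hspa5 was set beside the other proteins of its compartment. Of the 19 measured endoplasmic reticulum chaperones and folding enzymes, 17 had an r above 0 with Hspa5, from −0.30 for Hyou1 and Pdia4 to 0.93 for Dnajc10, median 0.67. After quantile normalization the median was 0.36, with 17 above 0, the highest being Manf at 0.61, Dnajc10 at 0.56 and Sdf2l1 at 0.52. Hsp90b1, the Hsp90 of the same compartment, stood at 0.69, and 0.096 after quantile normalization. These counts and medians were not set against the same measures over all probe sets. In the deposited values, 516 of 10358 probe sets of other genes, with a mean at or above the median, had an r above 0.8 with Hspa5. Whether the compartment stands apart from other bright genes was not tested.

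For each member the gene with the most similar profile was sought among 10358 probe sets of other genes with a mean at or above the median. For the cytosolic members these were Cnot2 for Hspa8 (r = 0.98, and 0.63 after quantile normalization), Nap1l1 for Hsp90aa1 (0.98 and 0.76), Wdr61 for Hsph1 (0.96 and 0.71) and Slc39a7 for Dnajb1 (0.95 and 0.93). For the organelle members they were Nolc1 for Hspd1 (0.97 and 0.79), Romo1 for Hspe1 (0.95 and 0.84), Gpbp1 for Hspa9 (0.93 and 0.84) and Papss1 for Hspa5 (0.96 and 0.91). Hspb1 was closest to Tex264 (0.96 and 0.94). The number of probe sets with an r above 0.8 ran from 64 for Dnajb1 to 1256 for Hsp90aa1.

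The wider chaperone network was examined next. Of 116 genes in 10 lists of other chaperones, cochaperones and stress regulators, 103 were measured and 0 were called in any genotype comparison. At an unadjusted p under 0.05, 2 were higher and 2 lower in KLF1-/- (3.88%, where the share of all genes is 2.12%), 3 higher and 2 lower in the KLF1-/- KLF2-/- labelled arrays (4.85%, against 2.40%), and 0 between the mutants, where Dnaja2 had the smallest p (−0.32, unadjusted p = 0.151). These counts come from the model with a mean per genotype, and counts with the run as a block are not given. In the block model Hspa1a, Hspa1b and Hspa4, picked with their values in view, differed between the mutants by 1.71, 1.57 and 0.72. Their unadjusted p in limma were 0.0239, 0.0223 and 0.0392, and none passed the adjusted threshold. The median differences of the 103 genes were 0.076 in KLF1-/- and 0.075 in the KLF1-/- KLF2-/- labelled arrays, beside 0.007 and 0.0067 over all genes. The members' medians given above, −0.078 and −0.059, were of the opposite sign, and this contrast was not tested. No list had a called member, and the list medians ran from −0.028 for heat shock factors to 0.22 for the erythroid globin and heme stress list in KLF1-/-. That list has 3 measured genes. Its KLF1-/- median was 0.61 with the run as a block, and its median difference between wild-type numbers 9 to 12 and 1 to 4 was also 0.61.

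The smallest p in both mutant comparisons belonged to Dnaja4, a cytosolic J-domain protein with 3 probe sets, of which only the brightest is given. It read 7.23, 6.25 and 6.39 in KLF1-/-, 6.23, 6.18 and 7.37 in the KLF1-/- KLF2-/- labelled arrays, and 7.11 to 7.90, median 7.65, in wild type. In each mutant 2 of 3 arrays lay below all wild-type arrays and the third, replicate 5 or 15, lay inside their range. The differences were −0.96 (95% CI −1.51 to −0.40, unadjusted p = 0.00245) in KLF1-/- and −0.99 (−1.55 to −0.43, unadjusted p = 0.00188) in the KLF1-/- KLF2-/- labelled arrays, with limma adjusted p of 0.9998 and 0.762. The 2 comparisons share the wild-type arrays. With the number run as a block the Dnaja4 differences were −0.80 (95% CI −1.42 to −0.18) in KLF1-/- and −1.15 (−1.77 to −0.53) in the KLF1-/- KLF2-/- labelled arrays. Trib3, a pseudokinase induced by the integrated stress response, differed from wild type by 0.74 in KLF1-/- and 0.86 in the KLF1-/- KLF2-/- labelled arrays (unadjusted p = 0.0333 and 0.0151). Hspa12b, a distant Hsp70 relative, differed by −0.49 in KLF1-/- and −0.61 in the KLF1-/- KLF2-/- labelled arrays (unadjusted p = 0.0286 and 0.00897). The J-domain protein Dnajb2 differed by 0.40 in KLF1-/- and 0.63 in the KLF1-/- KLF2-/- labelled arrays (unadjusted p = 0.0325 and 0.00251). Its KLF1-/- KLF2-/- labelled arrays did not overlap wild type, which was so for 0.698% of all probe sets. Dnajb2 also stood 0.36 higher on wild-type numbers 9 to 12 than on 1 to 4 (limma unadjusted p = 0.0491). The part of the number run in its difference was not tested. Dnajb4, another J-domain protein, differed by 0.89 in the KLF1-/- KLF2-/- labelled arrays (unadjusted p = 0.0102). None of these passed the adjusted threshold, and they were named because of their values. For Trib3, Hspa12b, Dnajb2 and Dnajb4 the differences from wild type come from the model with a mean per genotype, without the run as a block.

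**Figure D5:**
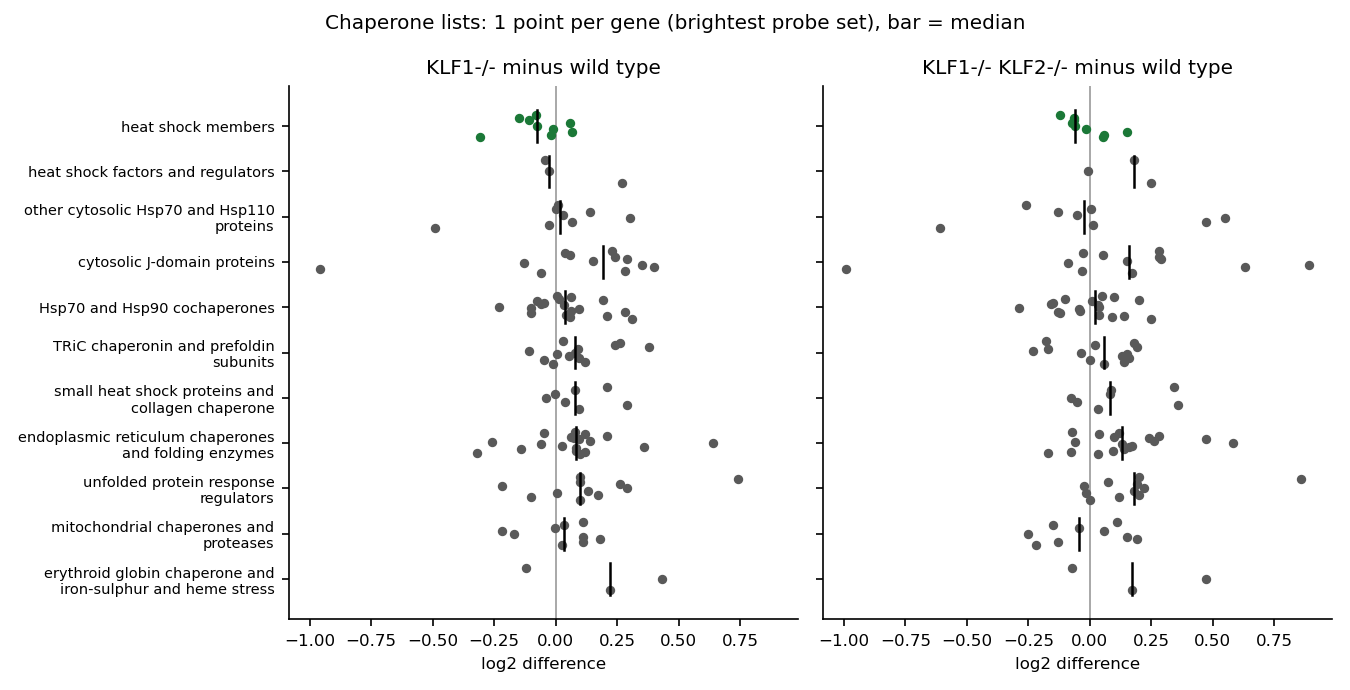
Log2 difference from wild type (horizontal axis) for the 9 members in green and 103 other chaperone genes in grey, 1 point per gene by list, with a bar at each list's median, KLF1-/- on the left and the KLF1-/- KLF2-/- labelled arrays on the right. The 9 members lie between −0.31 and 0.15, and Dnaja4 is the point farthest below 0 at −0.96 and −0.99.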

How the data were processed

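RNA of laser-captured yolk sac erythroid cells, 10 to 20 ng a sample, was amplified in 2 cycles from the poly(A) tail, per the labels' protocols, which enriches 3′ ends. The deposited log2 values per probe set were made by the authors with GCOS, RMA, affy and limma, per the submitters' processing notes, which give no versions. RMA compresses weak differences. Array medians ran from 6.55 to 6.67 and interquartile ranges from 2.31 to 3.12. The deposited arrays thus did not share the same distribution, which quantile normalization would give them. The values were used as deposited. Gapdh probe sets at the 3′ end exceeded those at the 5′ end by 4.33 to 5.06 in KLF1-/-, 3.94 to 5.20 in the KLF1-/- KLF2-/- labelled arrays and 3.90 to 5.28 in wild type, a measure of RNA quality. The same excess for actin had a higher median in the mutants. It was 4.74 to 5.07, median 4.75, in KLF1-/-, and 4.67 to 5.25, median 4.97, in the KLF1-/- KLF2-/- labelled arrays. In wild type the actin excess was 3.74 to 5.52, median 4.31. Its part in the genotype differences was not tested. The number of arrays limits precision.

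Of 22690 probe sets 64 were controls. Limma 3.58.1 in R 4.3.3 (lmFit, eBayes, two-sided) fitted a mean per genotype to the other 22626 over all 14 arrays, with Benjamini-Hochberg adjustment over all of them and calls at an adjusted p under 0.05. The wild-type number runs were compared in the 8 wild-type arrays alone. All intervals are 95% intervals from these fits, and differences name the first group minus the second. The fit was tested on simulated data. Summaries used pandas 2.3.3 and numpy 2.4.6 in Python 3.11.15, and figures matplotlib 3.10.9. Platform symbols were checked against the RefSeq table of GRCm38.p6.

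The brightest probe set by mean over 14 arrays describes each gene, and others are named where over 0.5 log2 units away or of opposite sign. Nearest genes and the smallest p of the other chaperones were named by rule. The genes, lists and rules were chosen with earlier results of these data known. The labels do not say which replicates came from the same litters, so p-values measure the spread between these samples. Alternatives changed the number run block, probe set choice, a filter on the dimmest 25% of probe sets, normalization, the variance prior, a Gapdh covariate and the arrays used.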

Additional observations from a re-analysis of the deposited data

Results flagged for a closer look

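Hspb1 on wild-type replicate 2 stood apart from the other wild-type arrays, at 9.13 where the next highest was 8.17. The gap was 0.589 of the range of the 8 wild-type arrays, above Dixon's critical ratio of 0.526. The other Hspb1 probe set was also highest on this array, at 8.08, but there the next array reached 8.07. In all, 22 member probe sets were examined this way, and chance gives such a value in about 1 of 20. The same array carried the highest mean deviation of the 9 members, 0.40, and an interquartile range of 2.89. The part of that range in the Hspb1 value was not tested.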

How the results depend on the processing

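No member passed the threshold under any alternative. Over 27 member comparisons there were 594 alternative values, from 14 settings that leave out 1 array and 8 others, of which 7 keep all arrays (1 of them added after the data were examined) and 1 keeps only the groups compared. Of these 0 reached an adjusted p under 0.05 in limma, the smallest being 0.941, and 81 had the opposite sign, none larger than 0.31 in size. The sign of most member differences is therefore not settled, and the cause was not tested. The 594 include settings that cannot change a difference, only its p. These are the brightest probe set per gene, the filter on dim probe sets, the variance prior and the groups compared. Leaving out an array of a genotype not compared cannot change it either, so 81 of 594 does not measure how stable the signs are. No paired analysis was possible because each array has a title number of its own and no number occurs in more than 1 genotype.

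With the number run as a block the sign turned for Hsp90aa1 0.012, Hspa5 −0.038 and Hspb1 −0.15 in KLF1-/- minus wild type. It turned for Hspa8 0.024, Hspe1 0.12, Hsph1 0.04, Dnajb1 −0.093 and Hspb1 0.14 in KLF1-/- KLF2-/- minus wild type, and for Hspa8 0.074, Hspd1 −0.056, Hsph1 0.28 and Hspb1 0.29 between the mutants. After quantile normalization it turned for Hspa8 0.013 in KLF1-/-, Dnajb1 −3.9e-05 in KLF1-/- KLF2-/-, and Hspa9 −0.026 between the mutants. With a Gapdh covariate it turned for Hspa5 −0.0016 in KLF1-/-, and for Hspa8 0.054 and Hsph1 0.0025 between the mutants. Quantile normalization and the block together, the added setting, gave Hspa8 0.073, Hsp90aa1 0.11, Hspd1 0.014 and Hspb1 −0.19 in KLF1-/-. It gave Hsp90aa1 −0.12, Dnajb1 −0.22 and Hspb1 0.12 in KLF1-/- KLF2-/-, and Hsp90aa1 −0.23, Hspa9 −0.14, Hspd1 −0.23, Hsph1 0.094, Dnajb1 −0.12 and Hspb1 0.31 between the mutants.

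Leaving out 1 array at a time gave ranges that cross 0 for 21 member comparisons. In KLF1-/- minus wild type they were Hspa8 −0.16 to 0.095, Hsp90aa1 −0.25 to 0.15, Hspa5 −0.23 to 0.31, Hspa9 −0.36 to 0.21, Hspd1 −0.36 to 0.18, Hsph1 −0.25 to 0.04 and Hspb1 −0.045 to 0.23. In KLF1-/- KLF2-/- minus wild type they were Hspa8 −0.085 to 0.052, Hsp90aa1 −0.069 to 0.22, Hspa9 −0.15 to 0.065, Hspd1 −0.25 to 0.028, Hspe1 −0.12 to 0.007, Dnajb1 −0.036 to 0.16 and Hspb1 −0.14 to 0.089. Between the mutants they were Hspa8 −0.11 to 0.15, Hsp90aa1 −0.097 to 0.31, Hspa5 −0.16 to 0.38, Hspa9 −0.27 to 0.30, Hspd1 −0.24 to 0.30, Hspe1 −0.053 to 0.17 and Hsph1 −0.16 to 0.13.

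The number of probe sets called over the whole table was small throughout. For KLF1-/- it was 6, or 2 with the block, 9 after quantile normalization, 8 with a trended robust prior, and 2 to 7 with 1 array left out, the 2 being without KLF1-/- replicate 6 or 8. For KLF1-/- KLF2-/- it was 5, or 8 with the brightest probe set of each gene, 10 without dim probe sets, 9 after quantile normalization, 10 with a trended robust prior, 12 with quantile normalization and the block, and 1 to 7 with 1 array left out. Between the mutants it was 0, or 1 with the brightest probe set of each gene, 1 after quantile normalization, and 0 to 1 with 1 array left out.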

Other observations

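The heat-inducible Hsp70 genes Hspa1a and Hspa1b, which are no members here, had SDs of 1.05 and 0.99 log2 units over the 8 wild-type arrays, where the member probe sets reached at most 0.96. Of all probe sets 3.26% did not overlap between the wild-type runs. Hspa1a stood at 5.92 to 6.21, median 6.11, on wild-type numbers 9 to 12 and at 6.24 to 8.90, median 7.22, on numbers 1 to 4, so the runs did not overlap for it. Its difference was −1.31 (95% CI −2.43 to −0.18, unadjusted p = 0.028 and adjusted p = 0.675 in limma). Hspa1b stood at 7.88 to 9.10, median 8.69, on numbers 9 to 12 and at 8.80 to 10.74, median 10.04, on numbers 1 to 4, a difference of −1.32 (−2.33 to −0.31, adjusted p = 0.646). These genes are near-identical copies whose probes may not tell them apart. Hspa4, an Hsp110 relative of Hsph1, stood at 9.82 to 10.56 on numbers 9 to 12 and at 10.63 to 10.95 on numbers 1 to 4, a difference of −0.72 (−1.09 to −0.34, adjusted p = 0.639). Against all wild-type arrays the differences of Hspa1a, Hspa1b and Hspa4 were 0.066, 0.30 and 0.0011 in KLF1-/- and 0.47, 0.55 and 0.0042 in the KLF1-/- KLF2-/- labelled arrays. Against the wild type of their own numbers they were larger in size. Of all probe sets 4.34% had KLF1-/- KLF2-/- labelled arrays clear of wild-type numbers 9 to 12. These arrays read 6.63 to 7.58 for Hspa1a and 9.31 to 10.18 for Hspa1b, clear in the same way. With the run as a block their differences were 1.12 (95% CI 0.1 to 2.14, unadjusted p = 0.0338, adjusted p = 1 in limma) for Hspa1a, 1.21 (0.29 to 2.14, unadjusted p = 0.0142, adjusted p = 1) for Hspa1b and 0.36 (−0.12 to 0.84) for Hspa4. In KLF1-/- they were −0.59 (−1.61 to 0.43), −0.36 (−1.29 to 0.57) and −0.36 (−0.84 to 0.12) for Hspa1a, Hspa1b and Hspa4. These 3 were picked with their values in view. Hspa1b and Hspa4 have 3 probe sets each, and their other sets are not given here. The constitutive Hspa8 differed between the same wild-type runs by −0.078 (−0.53 to 0.38).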
